A study of Bos taurus with 8 samples.

Results

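Interferon-stimulated genes are the genes that cells switch on when interferon reaches them, and 43 of them, with direct antiviral or signalling roles, were followed here in bovine retinal glia exposed to HIV-1 proteins. The genes were taken from a fixed list of names and matched to the gene names printed on the array. Of the 43 genes, 39 had at least 1 probe, with 78 probes in all, and all 39 passed the filter on dim probes and entered the test beside the other genes, 12160 in total. IFI44, IFI44L, ADAR and GBP2 had no probe under their names and were not analysed here. For each gene the brightest probe was used, and its level is the log2 of the background-subtracted signal minus the 75th percentile of its array, so that 1 unit is a doubling and values above 0 lie above that percentile.

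The samples were primary bovine cells that the labels call Müller glia, the support cells that span the retina, grown in DMEM for 18 to 21 days and then harvested 24 h after treatment. Control cells (2 arrays, letters A and B) are called controls in their titles, and no separate statement says what they received. The TAT group (3 arrays, letters A, B and C) received HIV-1 TAT, the viral transactivator protein, at 100 ng/ml, and the gp120 group (3 arrays, A, B and C) received HIV-1 gp120, the viral surface glycoprotein, at 60 ng/ml. The text on treatment is the same for every sample, controls included, and names both proteins together, so the groups follow the sample titles. The text on RNA extraction speaks of astrocytes, no strain or age is given, and the labels do not say whether the letters are separate cultures or animals, so that a p-value covers the spread among these samples alone, which may be technical. All 8 samples lay on 1 slide, with 1 array each.

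Type I interferons bind a receptor on the cell surface, and the kinases JAK1 and TYK2 then switch on transcription factors, STAT2 with IRF9 among them, that turn on genes with the matching promoter element. The products block viral RNA and protein synthesis (IFIT, OAS and MX proteins), tag proteins with ISG15, or feed back on the pathway (IRF7, USP18). Retinal Müller glia and microglia can both respond to interferon. In bulk RNA a lower level can stand for fewer cells of a type or for less RNA per cell, and these cannot be told apart.

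The probes on which the results turn are 60 bases long. Positions refer to HGSC Btau_3.1, the build that the headers state, and whether a probe lies in an exon was not analysed here. The IFIT probes are shown because 3 of the 4 genes varied widely between arrays, and IFIT3 has a pair of probes that can be compared. All lie on chromosome 26.
IFIT1, chr26:11471107-11471166, plus strand: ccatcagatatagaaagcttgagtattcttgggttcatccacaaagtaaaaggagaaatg
IFIT2, chr26:11431248-11431307, plus strand: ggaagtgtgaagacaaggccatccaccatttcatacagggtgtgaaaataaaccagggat
IFIT3, brighter probe, chr26:11449874-11449933, plus strand: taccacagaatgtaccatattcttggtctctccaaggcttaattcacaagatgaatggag
IFIT3, second probe, chr26:11448802-11448861, plus strand: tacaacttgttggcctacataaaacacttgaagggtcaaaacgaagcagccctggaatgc
IFIT5, chr26:11488447-11488506, plus strand: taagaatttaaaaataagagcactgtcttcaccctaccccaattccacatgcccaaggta
The GBP4 and SAMD9 probes are shown because probes of 1 gene gave different patterns over the arrays.
GBP4, brightest probe, chr3:57707523-57707582, plus strand: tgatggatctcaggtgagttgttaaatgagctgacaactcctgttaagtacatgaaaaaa
GBP4, distant probe, chr3:58165365-58165424, plus strand: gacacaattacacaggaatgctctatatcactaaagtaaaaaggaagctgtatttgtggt
GBP4, remaining probe, chr3:57688174-57689784, plus strand: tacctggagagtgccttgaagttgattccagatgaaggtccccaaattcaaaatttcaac
SAMD9, brighter probe, chr4:10710581-10710640, minus strand: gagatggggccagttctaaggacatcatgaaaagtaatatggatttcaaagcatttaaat
SAMD9, dimmer probe, chr4:10706910-10706969, minus strand: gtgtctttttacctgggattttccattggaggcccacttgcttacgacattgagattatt
The remaining GBP4 probe spans 1611 bases on the build, more than its own length. The IRF7 and ISG15 probes are shown because the paired probes of each gene share a stretch, set in capitals, of 54 and 28 bases, so their readings are not independent.
IRF7, brighter probe: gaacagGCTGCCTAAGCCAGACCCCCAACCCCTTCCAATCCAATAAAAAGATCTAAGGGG
IRF7, dimmer probe: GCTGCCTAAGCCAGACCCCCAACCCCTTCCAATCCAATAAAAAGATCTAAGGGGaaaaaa
ISG15, brighter probe, chr16:48718914-48718973, minus strand: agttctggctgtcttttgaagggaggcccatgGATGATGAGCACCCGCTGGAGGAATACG
ISG15, dimmer probe, chr16:48718882-48718941, minus strand: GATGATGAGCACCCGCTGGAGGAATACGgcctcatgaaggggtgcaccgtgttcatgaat
Probes of different members shared no run longer than 10 bases, which includes the near-identical bovine copies OAS1X and OAS1Y, although binding to related transcripts was not tested. The probe used for PLSCR1 carries an accession that the reference gene table names PLSCR2, and the probe with the PLSCR1 accession was not well above background on any array, so values printed for PLSCR1 may belong to PLSCR2.

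The number of arrays limits the precision of every comparison. Between 55.5% and 64.6% of spots were well above background, and 0 were saturated. Row 1 of the slide held both controls, TAT A and gp120 A, and gp120 B and C share one scan (scan 1), while the remaining 6 arrays share another (scan 2). Of 13 microglia and macrophage markers 13 were tested and 12 were well above background on all 8 arrays. Of 13 Müller glia markers 11 had a probe and 6 were tested, which were GLUL, VIM, SLC1A3, AQP4, CLU and DKK3, all well above background on 8 arrays. RLBP1, GFAP, KCNJ10, SOX2 and CA14 were well above background on 0 to 4 arrays. The summed signal of the tested Müller glia markers, in log2, ranged over 8.4 to 8.92 in control, 8.45 to 8.61 with TAT and 8.69 to 8.86 with gp120. The summed signal of the microglia and macrophage markers, in log2, ranged over 8.77 to 9.15 in control, 8.85 to 9.06 with TAT and 8.65 to 9.1 with gp120, and by letter over 8.85 to 9.15 in A, 8.65 to 9.06 in B and 8.91 to 9.1 in C. The part of other cell types in the values that follow was not tested.

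Over the 8 arrays the members varied by a median of 1.25 between their lowest and highest array, against 0.96 for all genes. Control A held the highest value of 21 of the 39 genes, and TAT B the lowest value of 15. For all genes tested, control A was highest for 20.4% and TAT B lowest for 12.4%. Relative to each gene's mean over the arrays, the median member stood at 0.5 in control A and -0.15 in control B. With TAT it stood at 0.18, -0.34 and -0.12 in letters A, B and C, and with gp120 at 0.04, -0.3 and 0.19. The median member was thus above its mean in the 3 letter A arrays and below it in the 3 letter B arrays, in each group.

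**Figure D1:**
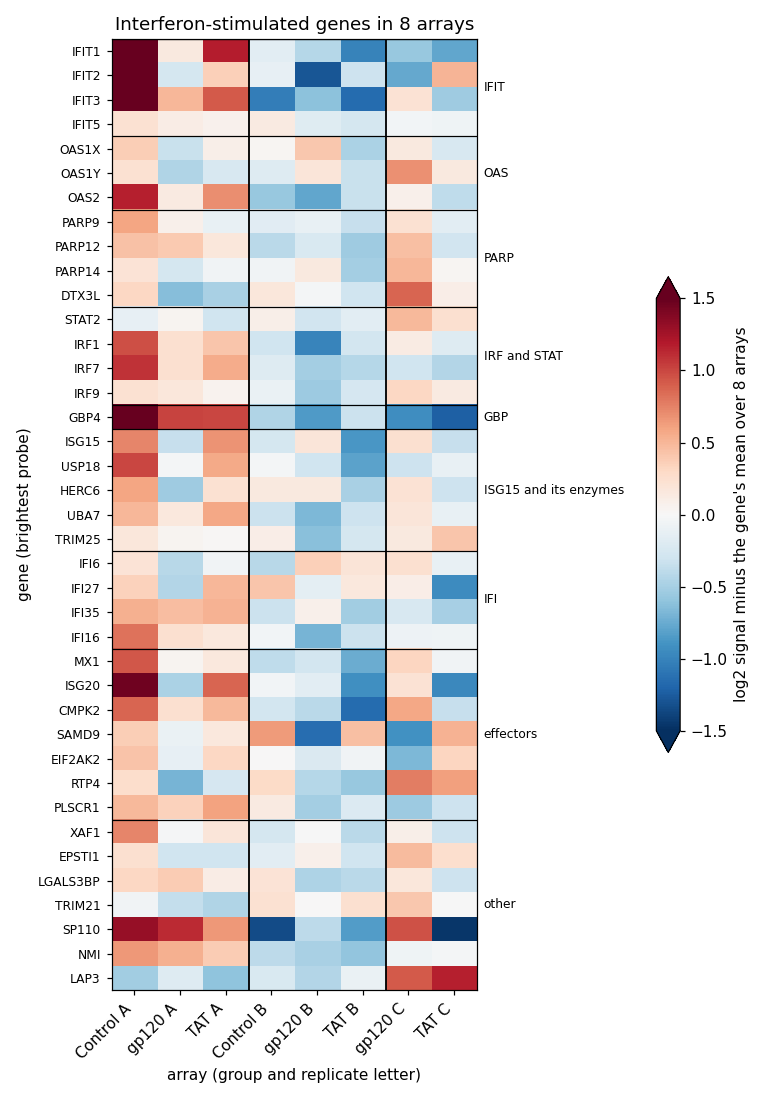
Log2 signal of the 39 genes in the 8 arrays, each gene shown as the difference from its own mean, with rows grouped by role and columns by replicate letter (vertical lines). Colours end at 1.5 in either direction and larger differences take the end colour. Most IFIT, IRF7 and GBP4 cells are red in the 3 letter A arrays, with control A deepest, and the row named PLSCR1 uses a probe whose accession belongs to PLSCR2.

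The first question was whether TAT alters the interferon programme of these cells. The members were mostly lower with TAT than in control, by a small amount that did not stand out from the spread between arrays. The fitted difference was below 0 for 37 of 39 genes (all genes 55%), with a median of -0.35 against -0.03 over all genes. By limma with Benjamini-Hochberg adjustment over all 12160 genes, 0 of 39 members passed an adjusted p of 0.05 (all genes 0%), and 0 had an unadjusted p under 0.05 (all genes 1.27%). In this fit, which has no pairing, the median 95% confidence interval reached 0.95 to either side of the estimate. Differences of about the size of the median could thus not be resolved there for a single gene. With the letter as a block the standard error fell from 0.91 to 0.27 for GBP4 and rose from 0.33 to 0.35 for HERC6. In that fit RTP4, DTX3L, IFI16 and CMPK2 had unadjusted limma p-values of 0.0113, 0.029, 0.0379 and 0.0394. Their limma adjusted p was 0.972 each, and the share of all genes was not counted for that fit. Without control A the median was 0.04, and without control B it was -0.66, so in the fit without pairing the sign turned with control A. With the letters as pairs and control A left out the median was -0.23. Within slide row 1 it was -0.02. That value sets TAT A, the only TAT array there, against controls of letters A and B, so the letters are mixed. Against control A alone the median for TAT A was -0.39. The 6 fibroblast and stroma markers tested were all above control with TAT, by a median of 0.82, and 0 passed. Their summed signal, in log2, ranged over 7.25 to 7.28 in control, 7.66 to 8.14 with TAT and 7.22 to 7.58 with gp120, where 5 of 6 were above control. The part of these cells in the members' values was not tested.

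The second question was the same for gp120. Here the fitted difference was below 0 for 31 of 39 genes (all genes 51.9%), and the median was -0.22 against -0.01 over all genes. By limma 0 of 39 passed an adjusted p of 0.05 (all genes 0%), and 2, SAMD9 and IFIT2, had an unadjusted p under 0.05 (all genes 2.57%). Both comparisons use the same control arrays. Without control A the gp120 median was 0.07 and without control B -0.65, and with the scan and the replicate letter both as blocks it was -0.5. With the letters as pairs and control A left out it was -0.24.

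**Figure D2:**
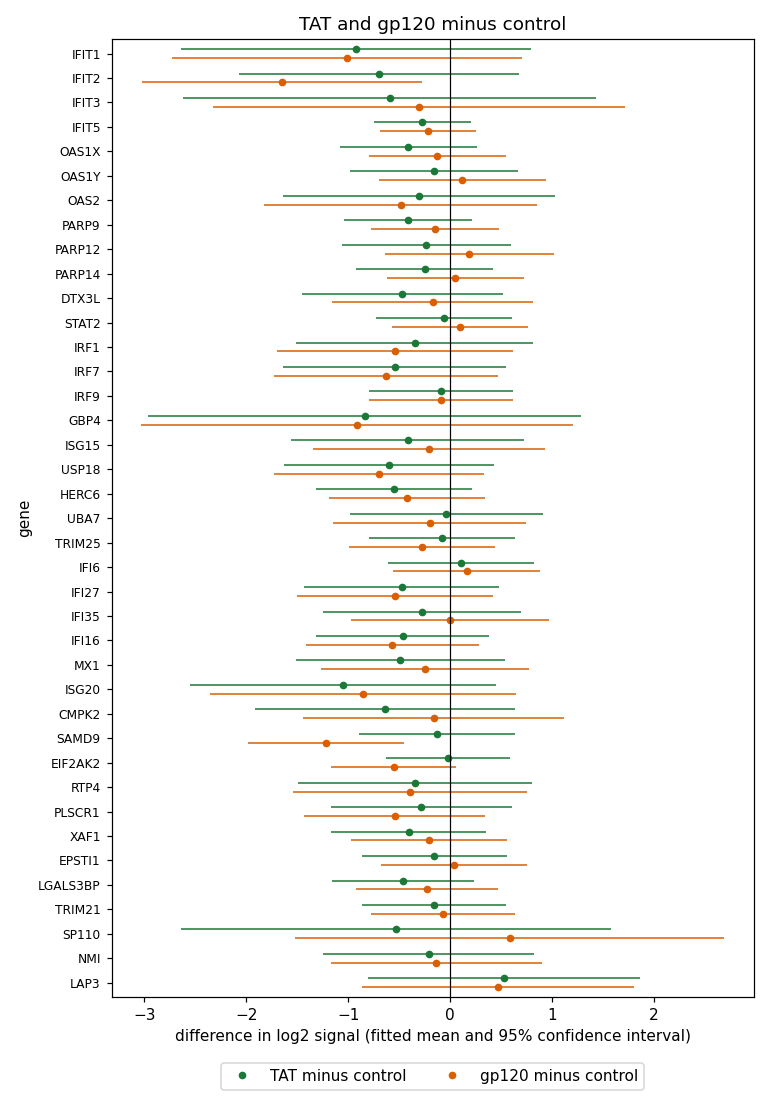
Fitted difference in log2 signal between TAT and control (green) and between gp120 and control (orange) for each of the 39 genes, with 95% confidence intervals from limma and no adjustment for the number of genes. Points lie mostly left of 0, and the interval leaves out 0 for IFIT2 and SAMD9 with gp120 alone.

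The signalling members came first in the pathway. IRF7, the factor that amplifies type I interferon production, read 3.94 and 2.66 in the controls, 3.41, 2.44 and 2.42 with TAT and 3.1, 2.35 and 2.56 with gp120 (letters in order). Control A was the highest array and control B lay inside the range of the treated arrays, so the groups overlapped. IRF7 averaged 3.3 ± 0.9 in control (SD, n = 2), 2.76 ± 0.57 with TAT (SD, n = 3) and 2.67 ± 0.39 with gp120 (SD, n = 3), which gave differences from control of -0.54 (SE 0.47) and -0.63 (SE 0.47). IRF1, a factor induced by interferon gamma as well, read 3.37 and 2.11 in the controls, 2.82, 2.13 and 2.21 with TAT and 2.65, 1.41 and 2.53 with gp120, with control A highest and gp120 B lowest. Its differences from control were -0.35 (SE 0.5) with TAT and -0.54 (SE 0.5) with gp120. STAT2 and IRF9, which form the core of the transcription complex, had small differences. STAT2 read 2.01 and 2.22 in the controls, 1.83, 1.97 and 2.37 with TAT and 2.17, 1.84 and 2.61 with gp120, with differences of -0.06 and 0.09. IRF9 read 3.59 and 3.27 in the controls, 3.41, 3.11 and 3.5 with TAT and 3.54, 2.81 and 3.67 with gp120. Here gp120 B was the one array clearly below the others, and the differences were -0.09 and -0.09. The median over these 4 genes was -0.22 with TAT and -0.32 with gp120.

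The IFIT proteins bind foreign RNA and block its translation, and 3 of the 4 genes had wide spreads. IFIT1 read -1.51 and -3.28 in the controls, -1.95, -4.12 and -3.89 with TAT and -2.97, -3.55 and -3.69 with gp120. Its 2 highest arrays were control A and TAT A, the other arrays lay at -2.97 or below, and the groups overlapped. The differences from control were -0.93 (SE 0.74) with TAT and -1.01 (SE 0.74) with gp120. IFIT2 read 0.34 and -1.67 in the controls, -1.19, -1.86 and -1.04 with TAT and -1.8, -2.83 and -2.31 with gp120. Control A stood alone at the top, and all 3 gp120 arrays lay below both controls, with gp120 A only just under control B. The gp120 difference was -1.65 (SE 0.59), with a 95% interval of -3.03 to -0.28, an unadjusted p of 0.0246 and a limma adjusted p of 0.999. This difference ranged from -2.66 to -0.64 when single arrays were left out, the smallest size being that without control A. With TAT it was -0.7 (SE 0.59). IFIT3 read 0.97 and -1.77 in the controls, 0.18, -1.89 and -1.27 with TAT and -0.24, -1.35 and -0.52 with gp120, again with control A and TAT A on top, and its differences were -0.59 (SE 0.87) and -0.3 (SE 0.87). IFIT5 differed from its relatives in its narrow range. It read 2.64 and 2.55 in the controls, 2.48, 2.15 and 2.35 with TAT and 2.52, 2.23 and 2.38 with gp120, all TAT and gp120 arrays lay below both controls, and the differences were -0.27 (SE 0.2) and -0.22 (SE 0.2).

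Separation of the groups can be read against all genes tested. With TAT, 3 of 39 members had every TAT array below both controls (all genes 9.24%), and with gp120 5 of 39 did (all genes 7.57%).

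The OAS enzymes make short oligoadenylates that activate an RNA-degrading enzyme. OAS1X read -0.69 and -1.03 in the controls, -0.98, -1.53 and -1.3 with TAT and -1.39, -0.66 and -0.91 with gp120, and the 3 lowest arrays were TAT B, gp120 A and TAT C. Its differences from control were -0.41 (SE 0.29) with TAT and -0.13 (SE 0.29) with gp120. OAS1Y read 5.75 and 5.33 in the controls, 5.28, 5.19 and 5.67 with TAT and 5.07, 5.7 and 6.2 with gp120, with gp120 C highest and gp120 A lowest, and the differences were -0.16 (SE 0.35) and 0.12 (SE 0.35). OAS2 read -0.0037 and -1.74 in the controls, -0.47, -1.5 and -1.55 with TAT and -1.04, -1.94 and -1.09 with gp120, so that control A was well above control B and the treated arrays lay between them or, for gp120 B, below both. Its differences were -0.31 (SE 0.58) and -0.49 (SE 0.58).

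PARP9, PARP12 and PARP14 are enzymes of ADP-ribosylation, and DTX3L is the ubiquitin ligase that partners PARP9. PARP9 read 3.13 and 2.37 in the controls, 2.43, 2.19 and 2.38 with TAT and 2.61, 2.43 and 2.77 with gp120. Control A was the highest array, the 7 others lay close together, and the differences were -0.42 (SE 0.27) with TAT and -0.15 (SE 0.27) with gp120. PARP12 read 0.73 and -0.11 in the controls, 0.47, -0.24 and 0.01 with TAT and 0.69, 0.07 and 0.74 with gp120, with control A, gp120 A and gp120 C together at the top, and differed by -0.24 and 0.19. PARP14 read 3.37 and 3.12 in the controls, 3.12, 2.67 and 3.2 with TAT and 2.91, 3.32 and 3.67 with gp120, with differences of -0.25 and 0.05. DTX3L read -1.73 and -1.87 in the controls, -2.53, -2.35 and -1.94 with TAT and -2.68, -2.07 and -1.16 with gp120, with gp120 C highest and gp120 A lowest, and differed by -0.47 and -0.17. Each of the 4 genes had a TAT difference below 0, against 2 of 4 with gp120, and none passed the test.

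GBP4, a guanylate-binding GTPase and the one GBP gene measured, read 2.83 and 0.61 in the controls, 2.06, 0.75 and -0.15 with TAT and 2.08, 0.21 and 0.14 with gp120. The 3 letter A arrays lay far above all others in each group. The differences from control, -0.84 (SE 0.91) with TAT and -0.91 (SE 0.91) with gp120, had standard errors of about their own size. With the letter as a block the TAT difference was -0.41 (SE 0.27).

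ISG15 is a ubiquitin-like modifier, UBA7 activates it and USP18 removes it and dampens receptor signalling. ISG15 read 5.18 and 4.18 in the controls, 5.12, 3.57 and 4.1 with TAT and 4.1, 4.63 and 4.69 with gp120, with control A and TAT A highest and TAT B lowest, and its differences from control were -0.42 (SE 0.49) with TAT and -0.21 (SE 0.49) with gp120. USP18 read 2.54 and 1.51 in the controls, 2.11, 0.74 and 1.42 with TAT and 1.51, 1.24 and 1.23 with gp120, with control A highest and TAT B lowest. It differed by -0.6 (SE 0.44) and -0.7 (SE 0.44), and the unadjusted p for gp120 was 0.155 (limma adjusted p = 0.999). HERC6, a ubiquitin ligase of the HERC family, had the smallest unadjusted p among the members with TAT. It read 0.97 and 0.52 in the controls, 0.62, -0.1 and 0.07 with TAT and -0.15, 0.53 and 0.59 with gp120, so that gp120 A and TAT B were lowest and the groups overlapped. The TAT difference was -0.55 (SE 0.33) with a 95% interval of -1.32 to 0.22, an unadjusted p of 0.135 and a limma adjusted p of 0.999. UBA7 read 2.75 and 1.93 in the controls, 2.83, 1.94 and 2.14 with TAT and 2.4, 1.58 and 2.44 with gp120, with TAT A and control A highest and gp120 B lowest. All 5 genes of this group, with TRIM25, had differences below 0 with both proteins, from -0.6 (USP18) to -0.04 (UBA7) with TAT.

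Among the direct effectors, all 7 measured genes had differences below 0 with either protein, with medians of -0.35 with TAT and -0.55 with gp120, and none passed the test. SAMD9, an antiviral protein that blocks poxvirus translation, read -1.56 and -1.29 in the controls, -1.77, -1.47 and -1.41 with TAT and -2.02, -3.07 and -2.84 with gp120. Every gp120 array was below every other array, and gp120 B and C, the arrays of scan 1, were lower still than gp120 A. The gp120 difference was -1.22 (SE 0.33) with a 95% interval of -1.98 to -0.45, an unadjusted p of 0.00658 and a limma adjusted p of 0.999. The dimmer SAMD9 probe, printed above, read -3.0 and -3.16 in the controls, -2.97, -3.5 and -3.47 with TAT and -2.97, -2.98 and -3.39 with gp120, a gp120 difference of -0.04, and did not set gp120 apart. Within scan 2, where gp120 A is the only gp120 array, the brighter probe differed by -0.6, and the part of the scan was not tested further.

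ISG20, an exonuclease that degrades viral RNA, had the lowest TAT difference of the 39 genes. It read -2.11 and -3.61 in the controls, -2.7, -4.49 and -4.54 with TAT and -4.05, -3.73 and -3.36 with gp120, with control A highest and TAT B and C lowest. The TAT difference was -1.05 (SE 0.65), with a 95% interval of -2.55 to 0.45 and a limma adjusted p of 0.999. Within slide row 1 alone it was 0.16, but there TAT A is set against controls of letters A and B, so the letters are mixed. The same-letter differences from control were -0.59 in letter A and -0.88 in letter B. EIF2AK2, the kinase PKR that halts translation, read 1.16 and 0.74 in the controls. It read 1.04, 0.69 and 1.06 with TAT and 0.61, 0.53 and 0.06 with gp120. The gp120 arrays lay below all others on this probe, while the groups overlapped on the second EIF2AK2 probe. On the brighter probe the gp120 difference was -0.55 (SE 0.26), with an unadjusted p of 0.0707 and a limma adjusted p of 0.999. MX1, a dynamin-like GTPase, read 5.71 and 4.39 in the controls, 4.94, 4.03 and 4.72 with TAT and 4.82, 4.5 and 5.1 with gp120, with control A highest and TAT B lowest, and differed by -0.49 (SE 0.44) and -0.24 (SE 0.44). The probe named PLSCR1, a phospholipid scramblase gene, differed by -0.28 (SE 0.38) with TAT and -0.55 (SE 0.38) with gp120. The gp120 value came to 0.03 with the slide row as a block. Both controls lie in row 1, where gp120 A is the only gp120 array, so the letters are mixed in that value. Its same-letter differences with gp120 were -0.14 in letter A and -0.64 in letter B. The PLSCR1-named probe read 3.59 and 3.25 in the controls, 3.71, 2.91 and 2.8 with TAT and 3.46, 2.61 and 2.57 with gp120, with the letter A arrays highest. CMPK2, a mitochondrial nucleotide kinase, read -3.2 and -4.35 in the controls, -3.59, -5.23 and -4.42 with TAT and -3.83, -4.49 and -3.49 with gp120, with control A highest and TAT B lowest. CMPK2 and RTP4, a receptor transporter, differed by -0.64 and -0.35 with TAT and by -0.16 and -0.39 with gp120.

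Of the 4 IFI genes measured, IFI6, a small membrane protein, was the exception in sign, with differences of 0.11 and 0.16. IFI27 and the DNA sensor IFI16 differed by -0.47 and -0.46 with TAT and by -0.54 and -0.57 with gp120. IFI16 read 3.64 and 2.78 in the controls, 2.98, 2.5 and 2.76 with TAT and 3.06, 2.13 and 2.75 with gp120, with control A highest and gp120 B lowest, and the gp120 value had an unadjusted p of 0.16 (limma adjusted p = 0.999). IFI35, a partner of NMI, read 3.47 and 2.61 in the controls, 3.45, 2.41 and 2.43 with TAT and 3.4, 3.01 and 2.7 with gp120, with the letter A arrays highest, and differed by -0.27 and -0.01. The 7 remaining genes had TAT differences from -0.53 (SP110) to 0.53 (LAP3), 6 of them below 0, and gp120 differences from -0.23 (LGALS3BP) to 0.58 (SP110), 4 of them below 0. LGALS3BP, a secreted glycoprotein that binds galectins, read 5.54 and 5.44 in the controls, 5.33, 4.83 and 4.91 with TAT and 5.61, 4.77 and 5.4 with gp120, and each TAT array lay below both controls, TAT A only just. Its TAT difference was -0.46 (SE 0.3), with a limma adjusted p of 0.999. SP110, a nuclear body protein, read -2.74 and -5.39 in the controls, -3.39, -4.88 and -5.51 with TAT and -2.92, -4.44 and -3.08 with gp120, with control A and gp120 A highest and TAT C lowest. SP110 was well above background on 6 of 8 arrays, the fewest of any member, and its gp120 interval ran from -1.52 to 2.69. Its mean was highest with gp120, and the filter on dim probes asks for all arrays of only 1 group.

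TAT and gp120 were compared with each other without the controls. Of the 39 genes 23 were lower with TAT (all genes 53.7%), and the median was -0.07 against -0.02 over all genes. By limma without a block 0 of 39 passed (all genes 0%) and 1, SAMD9, had an unadjusted p under 0.05 (all genes 2.5%). SAMD9 was higher with TAT by 1.09 (SE 0.29), with a 95% interval of 0.41 to 1.78 and a limma adjusted p of 0.9999. EIF2AK2 differed by 0.53 (SE 0.24) and was the other gene whose TAT arrays all lay above the gp120 arrays, which makes 2 of 39 (all genes 3.02%). On the dimmer SAMD9 probe TAT minus gp120 was -0.2, and on the second EIF2AK2 probe it was 0.13 with overlapping arrays. The gp120 arrays of letters B and C were read in scan 1 and every TAT array in scan 2, and the part of the scan was not tested. The next smallest p-values belonged to IFIT2 at 0.95 (SE 0.53), SP110 at -1.11 (SE 0.81), PARP12 at -0.42 (SE 0.32) and PARP14 at -0.3 (SE 0.26). With the letter as a block the unadjusted limma p was 0.0101 for SAMD9, 0.0135 for IFIT2 and 0.0354 for EIF2AK2. It was 0.0434 for PARP12 and 0.0467 for SP110. Their limma adjusted p ran from 0.625 to 0.639, and the share of all genes was not counted for that fit. The SP110 value rests partly on readings near background, with TAT C lowest. The filter on dim probes asks for all arrays of only 1 group, and gp120 had the highest SP110 mean, so that difference is no support for a change. For PARP14 the sign turned under 5 alternatives, among them the scan as a block and the median over its probes.

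The letters allow each treated array to be set against the array of the same letter, and the letter A arrays all lie in slide row 1 and scan 2. In letter A the median member differed from control by -0.39 with TAT (36 of 39 below 0, all genes 56.9%). With gp120 it differed by -0.63 (36 of 39, all genes 53.8%). In letter B, where control and treated arrays lie in different rows, it differed by -0.21 with TAT (31 of 39, all genes 56.2%). With gp120, where the scan differs as well, it was -0.21 (25 of 39, all genes 53.2%). For TAT 29 of 39 genes were lower in both letters (all genes 31.8%), and for gp120 22 of 39 were (all genes 27%). Each value is 1 array against 1 array and carries no test.

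Same-letter differences from control beyond 1 were found in 8 of 39 members for gp120 A, all below 0 (all genes 3.49% in either direction). For gp120 B there were 2 (all genes 7.4%), for TAT A 1 (all genes 4.99%) and for TAT B 0 (all genes 3.13%). With gp120 A against control A, IFIT2 differed by -2.15, ISG20 by -1.94, IFIT1 by -1.46 and IFIT3 by -1.21. With gp120 B against control B the same genes differed by -1.16, -0.12, -0.27 and 0.42, so IFIT2 alone of these 4 was beyond 1 in both letters. The other member beyond 1 for gp120 B was SAMD9, at -1.78, against -0.46 for gp120 A. Control B and gp120 B lie in different rows and scans, and the part of either was not tested. With TAT A against control A IFIT2 differed by -1.53, the one member beyond 1 in that pair, and with TAT B against control B by -0.19.

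Between the proteins the letters did not run the same way. The median of TAT minus gp120 was 0.21 in letter A, -0.14 in B and -0.32 in C, and 16 of 39 members were above gp120 in A and below it in both B and C (all genes 15.1%). ISG15 differed by 1.01 in A, -1.06 in B and -0.59 in C, and ISG20 by 1.34, -0.76 and -1.18. The gp120 arrays of B and C, but not of A, were read in scan 1, and the part of the scan was not tested.

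**Figure D3:**
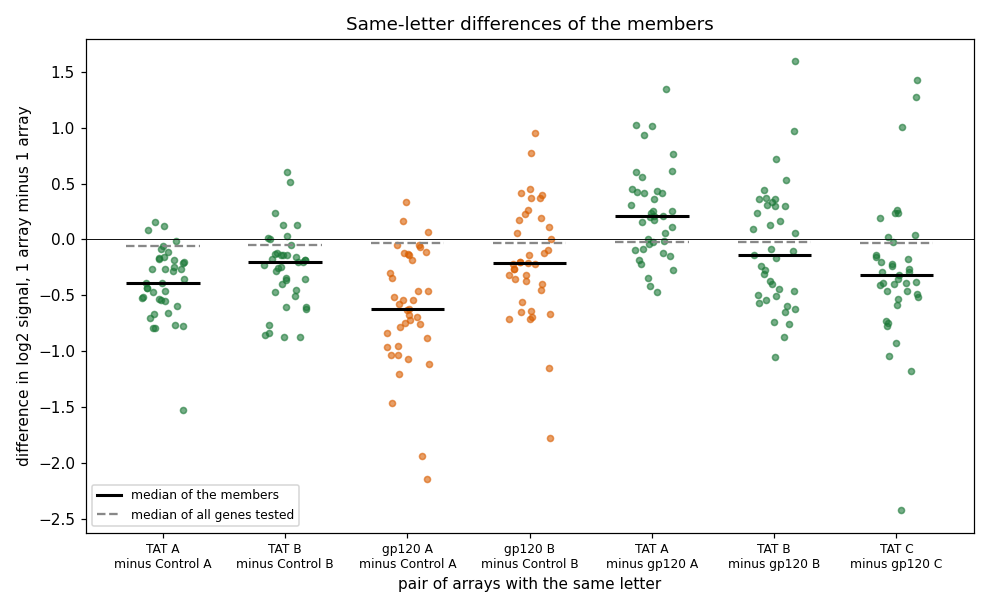
Difference in log2 signal between pairs of arrays with the same letter, 1 point per gene for the 39 genes, with the median of the members (black line) and of all genes tested (dashed grey line). Members lie mostly below 0 against control, deepest for gp120 A at a median of -0.63, and above 0 for TAT A minus gp120 A.

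Among the comparisons made, calls for the members came between replicate letters and not between treatments. In a model with letter and group, 10 of 39 members differed between letters at a limma adjusted p under 0.05 (F test, all genes 16.3%). Letter A was higher than letter B for 16 of 39 members at that threshold (all genes 6.79%). It was lower for 0 of 39, for which the share of all genes was not counted. Against letter C it was higher for 4 (all genes 7.46%) and lower for 2 (all genes 8.43%). Between B and C 0 passed (all genes 1.41%), with 14 at an unadjusted p under 0.05 (all genes 16.1%). The median of A minus B over the members was 0.52 against 0.01 over all genes.

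These counts changed when the slide row entered the model. Letter A lies wholly in row 1 and letter C wholly in row 2, so A against C cannot be told apart from the row except through letter B, which lies in both. With the row as a block 0 members passed in any letter comparison. The share of all genes was not counted for that fit, so a fall common to all genes cannot be told apart. A minus B then rests on control A against control B alone. There, within row 1 and scan 2, control A was above control B for 33 of 39 members (all genes 51.5%), by a median of 0.77. Leaving out any 1 array lowered the 16 calls for A minus B, to 2 without control A or control B, 3 without TAT A or TAT B, 5 without gp120 B, 8 without TAT C or gp120 C and 10 without gp120 A. The 6 calls for A minus C became 0 without TAT C or gp120 C and 3 without TAT A or TAT B. For the fits without single arrays the share of all genes was not counted either.

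GBP4 had the smallest p, and its 3 letter A arrays (2.83, 2.06 and 2.08 in control, TAT and gp120) lay more than 1 above the highest other array. A minus B was 1.8 (SE 0.23), limma adjusted p = 0.00726, and A minus C was 2.18 (SE 0.27), limma adjusted p = 0.00672. NMI, which binds STAT proteins, read 3.89 and 2.86 in the controls, 3.63, 2.65 and 3.21 with TAT and 3.78, 2.76 and 3.17 with gp120, so the letter A arrays were highest, the C arrays next and the B arrays lowest in every group that holds them. Its A minus B was 1.01 (SE 0.14), limma adjusted p = 0.00992. Of the IFIT genes, IFIT3, IFIT1 and IFIT2 were higher in A than in B, by 1.97 (SE 0.33), 1.51 (SE 0.31) and 1.24 (SE 0.28), with limma adjusted p-values of 0.0156, 0.0294 and 0.0363, and IFIT5 differed by 0.24 and did not pass.

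IRF7 and IRF1 were higher in A than in B by 1.0 (SE 0.17) and 1.06 (SE 0.23) (limma adjusted p = 0.0176 and 0.0305), while STAT2 and IRF9 differed by -0.01 and 0.45 and did not pass. The other genes called were OAS2 (1.22), CMPK2 (1.15), SP110 (1.88), MX1 (0.85), UBA7 (0.84), IFI35 (0.76), IFI16 (0.76), PARP12 (0.72) and the PLSCR1-named probe (0.67). In A minus C the genes called higher, beside GBP4, were IFI35 at 0.88, IRF7 at 0.83 and the PLSCR1-named probe at 0.82 (limma adjusted p = 0.037, 0.0416 and 0.0383). The OAS copies OAS1X and OAS1Y differed in A minus B by 0.05 and -0.04, and TRIM21, the intracellular antibody receptor, by -0.44, the lowest value of the list.

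LAP3, a leucine aminopeptidase, and RTP4 ran the other way, highest in letter C. LAP3 read 2.63 and 2.92 in the controls, 2.54, 3.05 and 4.31 with TAT and 2.96, 2.71 and 4.07 with gp120, and RTP4 read 3.1 and 3.12 in the controls, 2.58, 2.27 and 3.45 with TAT and 2.14, 2.41 and 3.6 with gp120. Against letter A the C arrays were higher, with A minus C of -1.47 (SE 0.23) for LAP3 and -1.17 (SE 0.21) for RTP4 (limma adjusted p = 0.0127 and 0.0183). Within row 2, where letters B and C can be compared in the same scan, C was above B by 1.26 with TAT and 1.36 with gp120 for LAP3, and by 1.18 and 1.19 for RTP4. In all 25 of 39 members were higher in C than in B in both treatments (all genes 37.4%).

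**Figure D4:**
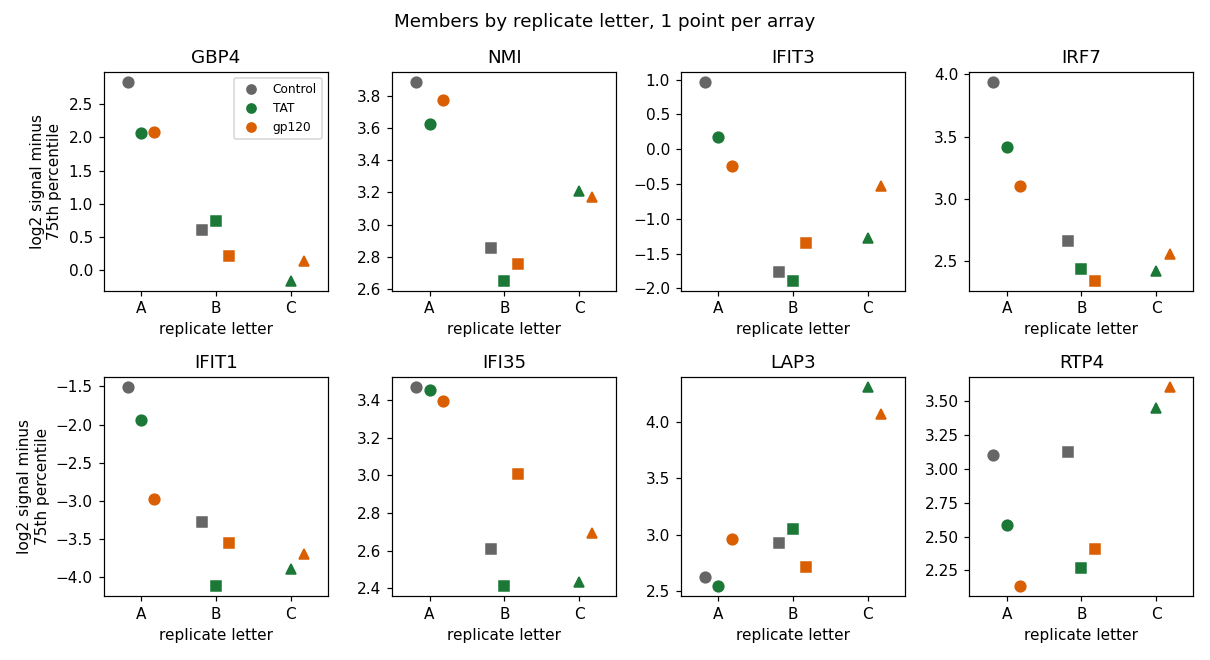
Log2 signal minus the 75th percentile of the array for 8 of the genes that differed between letters, 1 point per array, by replicate letter and coloured by group, each panel with its own scale that does not start at 0. The letter A points of GBP4, NMI, IFIT3 and IRF7 lie above all others, and the letter C points of LAP3 and RTP4 lie highest.

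Some cell type markers differed between letters as well. The 13 microglia and macrophage markers had a median A minus B of 0.34, with 10 of 13 above 0 and 0 past the threshold, and the fibroblast markers -0.07. Of the T and NK cell markers tested, CD2 was higher in A than in B by 1.0 (limma adjusted p = 0.019) and NKG7 lower, with A minus B of -1.51 (limma adjusted p = 0.00631). CD3D, well above background on all 8 arrays, differed by 0.11 (limma adjusted p = 0.67), and CD3E was well above background on 0 arrays. For A minus C, 1 of 6 Müller glia, 1 of 3 astrocyte, 1 of 4 endothelial, 2 of 3 T and NK cell and 0 of 13 microglia and macrophage markers passed. The part of these cells in the letter differences was not tested.

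Several genes could be read on more than 1 probe. Of 27 members with several probes that passed the filter, all probes had the same sign in 22 for TAT minus control, 17 for gp120 minus control and 22 for A minus B. It was 12 for TAT minus gp120, 18 for A minus C and 17 for B minus C. The second EIF2AK2 probe gave differences of -0.78 with TAT and -0.91 with gp120, against -0.02 and -0.55 on the brighter one. IFIT3 agreed on both probes, with A minus B of 1.97 and 2.65. The GBP4 probe at chr3:58165365-58165424, which lies apart from the other GBP4 probes, ran against them, with A minus B of -0.69 against 1.8 and 1.63. It read -0.94 and -0.77 in the controls, -1.03, -0.09 and 0.1 with TAT and -1.26, -0.3 and 0.2 with gp120, lowest in the letter A arrays, so the calls for GBP4 hold for its brightest probe and not for every probe of that name.

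**Figure D5:**
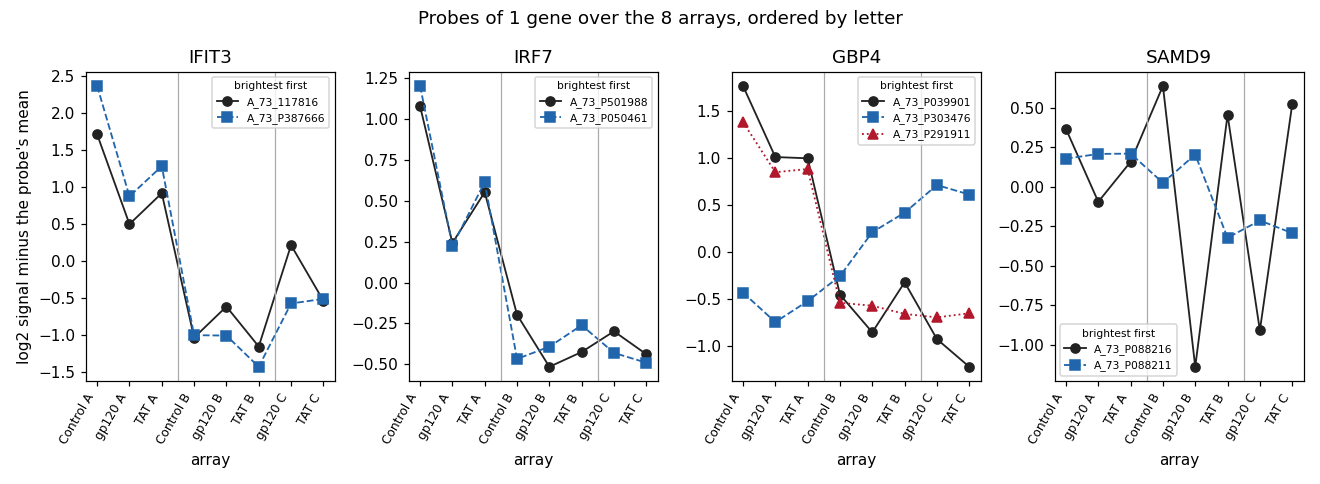
Log2 signal of each probe of IFIT3, IRF7, GBP4 and SAMD9 minus the probe's own mean, over the 8 arrays in order of letter (vertical lines), with 1 line per probe that passed the filter and a scale per panel. The IFIT3 and IRF7 probes run together, 1 of 3 GBP4 probes runs against the other 2, and the low values of the brighter SAMD9 probe in gp120 B and C are absent from the dimmer one.

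In 20 members an upstream and a downstream probe lay 1000 to 200000 bases apart on 1 strand, and the difference between them shows whether the far ends of a transcript were read alike. Between gp120 and control the difference in upstream minus downstream signal had a median of -0.26, with 12 of 20 below 0, against 0.05 over 4419 genes with such a pair. In 14 of the 20 members, and in 3462 genes, both probes were well above background on all 8 arrays, and there the medians were 0.12 (7 of 14 below 0) and 0.07, so the lower gp120 median rested on pairs with a probe near background. Between TAT and control the median over the 20 was 0.02 (all genes -0.01), and between TAT and gp120 it was 0.26 with 13 of 20 above 0, against -0.06 and 7 of 14 without those pairs. For letter A minus C it was 0.44 with 16 of 20 above 0 (all genes 0.12, 58.3% above 0), and 0.24 with 10 of 14 without those pairs. For B minus C it was 0.34 with 16 of 20 above 0 (all genes 0.06, 55.7%), and 0.24 with 10 of 14. For PARP14 the downstream, brighter probe gave a gp120 difference of 0.05 and the upstream probe -1.35, the latter well above background on 7 of 8 arrays.

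The interferons that would act on these genes were near the limit of the array. Of 13 ligand names 6 had a probe, and none was well above background on more than 1 array, with IFNG and IFNK at 0 arrays and IFNW1 at 1. The receptors were measured better, with 5 of 6 tested and 0 past the threshold in either comparison with control. IFNAR1 and IFNGR1 differed by 0.26 and 0.22 with TAT and by 0.72 and 0.51 with gp120. Of 14 kinases and transcription factors tested 0 passed with either protein, and 10 were below 0 with TAT and 8 with gp120. JAK2, a kinase bound to cytokine receptors, differed by -0.54 and -0.79.

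Between letters, IKBKE, a kinase upstream of IRF7, was higher in A than in B by 1.49 (SE 0.21, limma adjusted p = 0.00993), as was IRF5 by 0.79 (limma adjusted p = 0.0331), which makes 2 of 14 called. JAK2 was higher in A than in C by 1.17 (limma adjusted p = 0.0119). Of the 4 inhibitors tested 0 passed with either protein, and the phosphatase PTPN6 was lower in A than in C (A minus C -0.99, limma adjusted p = 0.0309). Of 9 further interferon-induced sensors, effectors and chemokines outside the list, 7 were below 0 with TAT and 7 with gp120, with medians of -0.6 and -0.31, and 0 passed. In A minus B 7 of the 9 were above 0, and 3 of them, RSAD2, IFIH1 and ZBP1, passed the limma threshold. RIGI is on the array under its older symbol DDX58 as well, and the brighter probe, named RIGI, stands for it, with a gp120 difference of -0.01 against -1.15 on the other.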

How the data were processed

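RNA of 8 bovine glial samples was read on 1-colour Agilent arrays (1 slide). Per the file headers, the authors extracted the deposited intensity values under the protocol GE1_1105_Oct12 of Agilent's Feature Extraction software (version 11.5.1.1), with background subtracted and surrogate values near background. How the authors made the log2 values of a deposited table was not given in the sources used here; column medians were -3.2, -3.3, -3.26, -3.21, -3.25, -3.25, -3.18, -3.33 (controls A and B, TAT A to C, gp120 A to C), it correlated with the scanner values at 0.998 or more, its centring is unknown, and it was tried in place of the scanner files.

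The processed signals were scaled to the 75th percentile of their array and set on a log2 scale, leaving out control spots and outlier flags (4 to 37 spots per array), and repeated spots were averaged. The filter on dim probes asked for a flag well above background on all arrays of some group, and 31153 of 51282 probes passed it with a value on each array. The RefSeq gene table named 29882 probes by accession, 5523 by symbol and 159 by synonym, 556 kept the name of the file and 15162 stayed unnamed; members were matched by the name in the file. The brightest probe stood for a gene. Tests used limma's lmFit and eBayes (version 3.58.1, R 4.3.3) over all genes, two-sided with Benjamini-Hochberg adjustment and a threshold of 0.05, without a block for the groups, and letters in a model with the group. The functions were tested on simulated data.

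The letters were checked for pairing. Each array's deviation from its group mean was correlated with that of arrays in the other groups. Same-letter pairs gave 0.377 to 0.742 (7 pairs) and different-letter pairs -0.652 to 0.415 (14 pairs), so the ranges overlapped. On this basis the letters were taken to pair the samples. With 2 controls their deviations are mirror images. Letters A and C lie in different slide rows, so for them the check cannot tell the letter from the row. Alternatives were the letter, slide row or scan as a block, other background corrections, scalings, filters and probe choices, the deposited table, and leaving out each array. The replicate block without control A and the comparison of upstream with downstream probes, also over probes above background on all arrays, were added after the data were seen. The members and lists were chosen with earlier results of these data known. Every member is accounted for. Array values are given for the IFIT, OAS, PARP, IRF and STAT and GBP genes and for members past the threshold. They are also given for the 6 with the smallest p in each comparison with or between the proteins, in the fit without a block. Promoter and protein sequences were not used here. Python 3.11.15 with pandas 2.3.3, numpy 2.4.6 and matplotlib 3.10.9 was used for tables and plots, and statmod 1.5.0 for random blocks.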

Additional observations from a re-analysis of the deposited data

Results flagged for a closer look

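Some members had same-letter differences of opposite sign in letters A and B, both beyond 0.5, with 1 array on each side, and these differences between letters were not tested. For TAT minus control, SP110 was at -0.66 in letter A and 0.51 in B. For gp120 minus control, IFI6 was at -0.63 and 0.77. For TAT minus gp120 the values in A and B were 1.01 and -1.06 for ISG15, 1.03 and -0.57 for IFIT1, 1.34 and -0.76 for ISG20 and 0.77 and -0.63 for HERC6, higher with TAT in letter A and lower in letter B in each of the 4.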

How the results depend on the processing

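In the 3 treatment comparisons 0 members passed the threshold under each of 25 alternatives, with smallest limma adjusted p-values of 0.832 for TAT, 0.157 for gp120 and 0.133 between the proteins. With the replicate letter as a block, the paired analysis, the medians were -0.39 for TAT and -0.27 for gp120, and 0 passed. There 4 and 6 members had an unadjusted p under 0.05. The share of all genes under that level was not counted for the paired fit, so these counts cannot be set against it. Without control A the paired medians were -0.23 and -0.24. The block changed no call. Leaving out 1 array moved the medians between -0.66 and 0.0416 for TAT, -0.65 and 0.0726 for gp120 and -0.23 and 0.0943 between the proteins. Beyond the spread between replicates they also moved within slide row 1, to -0.018 for TAT and 0.21 between the proteins. Row 1 holds both controls but only the letter A array of each treated group, so its differences from control mix the letters. With scan and letter both as blocks they moved to -0.50 for gp120 and 0.23 between the proteins. The cause was not tested.

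The letter counts were less stable. The F test, A minus B, A minus C and B minus C called 10, 16, 6 and 0 members. The share of all genes was counted for that fit alone, so the counts that follow cannot be set against it. With the slide row as a block these comparisons called 0 each, and within scan 2 0, 3, 0 and 0, where fewer arrays were used. The deposited table gave 5, 5 and 3 for the first 3, and no filter on dim probes 1, 4 and 2. Normexp correction gave 17 for the F test and 2 for B minus C, probes above background on all 8 arrays gave 16 for the F test, and the scan as a block gave 10 for A minus B and 1 for B minus C. Without single arrays the ranges were 2 to 8, 2 to 10, 0 to 6 and 0 to 1. Of 18 named differences 11 of 449 values under the alternatives had the other sign, for ISG20, USP18, PLSCR1 and PARP14, none of them called. Precision is limited by 2 or 3 arrays a group, and in the fit without a block the largest standard errors were those of GBP4, SP110 and IFIT3.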
